A study of Mus musculus with 12 samples.

Results

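The Krüppel-like factors (KLFs) described here are 9 transcription factor genes, Klf2, Klf3, Klf4, Klf5, Klf6, Klf7, Klf9, Klf10 and Klf13, read from a table of 54532 mouse genes by their symbols. All 9 were found, and 9 of 9 passed the filter on low counts that left 14894 genes to test. The 9 were chosen by symbol after levels and fold changes of these counts had been seen, and which of those values weighed in the choice is not recorded. The fold changes and adjusted p-values of the 9 genes are therefore given as a description of these libraries, and nothing is supported with them.

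In the study, wild-type (WT) C57BL/6 mouse bone marrow was cultured for 5 days with GM-CSF and IL-6, cytokines used to generate suppressive myeloid cells, to ask how indole-3-propionic acid (IPA), a tryptophan metabolite made by gut bacteria, acts on myeloid cell production. The 12 bulk RNA-seq libraries fall into 3 groups of 4, which are vehicle (labelled 0.1DMSO), 10 µM IPA and 50 µM IPA. All 3 groups received the same medium and cytokines, and vehicle or IPA was renewed when the medium was changed, at day 3 per the labels and on a different schedule per the methods. The study describes the higher dose as supraphysiological and as lowering cell viability, which limits the 50 µM group as a model. Neither the labels nor the methods tie a library to a separate animal or culture, so the p-values measure the spread between these samples, which may be technical. Because the cultures hold several cell types, fewer cells of a type and less RNA per cell cannot be told apart.

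KLFs are zinc-finger proteins that bind CACCC and GC-rich boxes in promoters and enhancers, and the related SP proteins bind much the same boxes. In the myeloid lineage Klf4 is known for its requirement in the formation of Ly6C-high monocytes and for its part, with Stat6, in alternative activation of macrophages, while Klf2 is known for restraining inflammatory genes in monocytes. The family falls into groups by cofactor. Klf2, Klf4, Klf5, Klf6 and Klf7 act largely as activators, Klf3 recruits the corepressor CtBP, and Klf9, Klf10 and Klf13 recruit the corepressor Sin3A.

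Library totals lay between 22417710 and 26442653 counts in vehicle, 20848854 and 28038612 in 10 µM IPA, and 20451312 and 26925143 in 50 µM IPA, so the ranges overlapped. Over all genes vehicle replicate 4 stood apart from the other vehicle libraries, with a chi-square per degree of freedom of 17.6 to 57.3 against them, beside 9.23 to 17.3 among those 3. Without it edgeR called the same 2 members against vehicle at 50 µM, Klf4 (log2 fold change -0.65) and Klf5 (-0.51). Levels below are in CPM, read counts scaled to a common library size with edgeR's TMM factors. The culture was a mixture by its markers. Summed neutrophil markers reached 19272 to 27193 CPM in vehicle, monocyte markers 2153 to 2667 CPM and macrophage markers 1626 to 1803 CPM. Eosinophil markers summed to 1007 to 1250 CPM there, dendritic cell markers to 687 to 743 CPM and mast cell markers to 193 to 234 CPM. Megakaryocyte markers summed to 175 to 201 CPM, against 2.16 to 4.93 CPM for T cell and 2.78 to 6.09 CPM for stromal markers. With an adjusted p under 0.05 in edgeR's quasi-likelihood test, 61 genes (0.41% of those tested) were called at 10 µM and 2010 (13.5%) at 50 µM against vehicle, and 2289 (15.4%) between the doses. These comparisons share libraries in pairs, so their values stand side by side and are not independent.

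Sequences upstream of 3 members are shown to set their family's own boxes beside the genes, which differ in how far their group means lie apart. Klf4 had the largest range of group means on the log2 scale (0.90), Klf9 the third largest (0.41) and Klf13 the smallest (0.08). RefSeq's table of promoter sequences on GRCm38.p6, the build of the counts, matched 7 of the 9 members, and did not list Klf5 or Klf10. Each line is the 250 bases before the RefSeq start, 5′ to 3′ on the gene's strand, with capitals marking every match on either strand to the CACCC box (CACCC or GGGTG), the GC box (GGGCGG or CCGCCC) and the CCAAT box (CCAAT or ATTGG).
Klf4, chr4:55532476-55532725, minus strand: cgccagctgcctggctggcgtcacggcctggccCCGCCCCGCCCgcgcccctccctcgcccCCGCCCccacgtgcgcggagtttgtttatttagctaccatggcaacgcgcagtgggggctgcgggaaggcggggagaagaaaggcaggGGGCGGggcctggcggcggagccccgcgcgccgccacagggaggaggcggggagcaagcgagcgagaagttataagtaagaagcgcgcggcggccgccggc
Klf9, chr19:23140976-23141225, plus strand: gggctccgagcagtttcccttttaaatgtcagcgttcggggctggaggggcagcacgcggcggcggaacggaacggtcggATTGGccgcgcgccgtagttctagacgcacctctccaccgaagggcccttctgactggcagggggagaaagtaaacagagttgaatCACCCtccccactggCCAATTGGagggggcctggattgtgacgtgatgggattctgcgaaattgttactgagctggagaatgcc
Klf13, chr7:63938916-63939165, minus strand: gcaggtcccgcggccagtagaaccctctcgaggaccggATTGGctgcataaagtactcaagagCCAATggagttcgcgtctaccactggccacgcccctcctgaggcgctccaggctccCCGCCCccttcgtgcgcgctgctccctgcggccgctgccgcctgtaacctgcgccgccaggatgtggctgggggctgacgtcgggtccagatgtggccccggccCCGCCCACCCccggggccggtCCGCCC
The Klf4 window held 4 GC boxes, no CACCC box and no CCAAT box, with 74.0% G and C. The Klf9 window held no GC box but 1 CACCC and 3 CCAAT boxes at 59.6% G and C, and the Klf13 window held 1 CACCC, 3 GC and 2 CCAAT boxes at 71.6%. Matches overlap in places, as in the Klf9 run that reads as a CCAAT box on both strands and the Klf13 run in which a GC box and a CACCC box share bases. Over 32817 windows of the same length, 52.0% held a CACCC box, 32.7% a GC box and 33.8% a CCAAT box, and the median G and C content was 52.4%. The boxes are letter matches in this window, not shown sites, and the counts do not say which factor binds them.

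Per kilobase of exon, Klf6 was the most abundant member, at 76.6 CPM per kb averaged over the 12 libraries, higher than 95.6% of the tested genes with a length. Klf2 and Klf13 followed at 32.1 and 30.4 CPM per kb, then Klf4 at 11.1, Klf10 at 9.36, Klf3 at 8.09 and Klf7 at 7.56 CPM per kb. Klf9 and Klf5 were lowest, at 3.54 and 3.52 CPM per kb, still near the middle of all tested genes (44.3% and 44.1% lay below them). Several neighbours in this order did not differ beyond their spread. In vehicle, Klf2 at 31.2 ± 2.54 and Klf13 at 31.5 ± 0.354 CPM per kb overlapped, and so did Klf10 at 9.17 ± 1.23, Klf3 at 8.37 ± 0.338 and Klf7 at 7.48 ± 1.23 CPM per kb (SD, n = 4 each).

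The place of Klf4 in that order differed between the groups. Its level per length was 11.6 ± 0.854 CPM per kb in vehicle and 14.2 ± 0.362 in 10 µM IPA, the fourth highest mean of the 9 in both groups. In vehicle replicate 4, however, Klf10 lay above Klf4 per length. In 50 µM IPA the Klf4 level was 7.62 ± 1.02 CPM per kb, within the spread of Klf10 at 8.50 ± 0.723, Klf7 at 8.03 ± 0.898 and Klf3 at 7.63 ± 0.509. At the bottom, Klf5 stood above Klf9 in vehicle (4.34 ± 0.245 against 2.95 ± 0.670 CPM per kb), whereas in 50 µM IPA Klf9 had the higher mean (3.93 ± 0.644 against 2.98 ± 0.454 CPM per kb). Klf6 stayed at the top throughout, between 73.4 and 81.7 CPM per kb as group means.

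**Figure D1:**
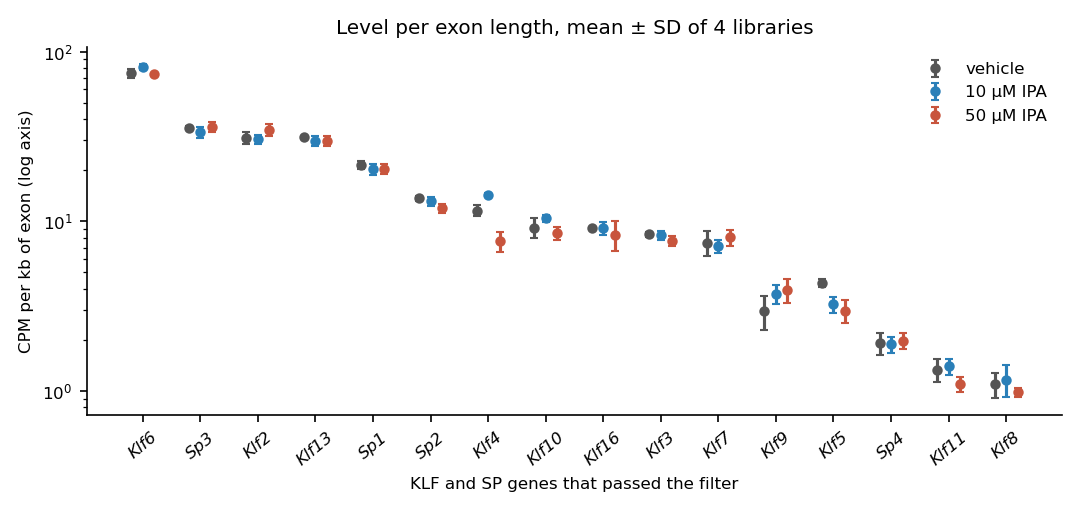
Group means ± SD (n = 4 libraries) of CPM per kilobase of exon, on a log axis, for the 9 KLF members and the 7 other KLF and SP genes that passed the filter, in vehicle, 10 µM IPA and 50 µM IPA. Klf6 is highest at 73.4 to 81.7 CPM per kb, and Klf4 has the widest gap between groups, from 14.2 at 10 µM to 7.62 at 50 µM.

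Summed over the 9 members, the libraries carried 888 ± 17.1 CPM in vehicle, 913 ± 36.5 in 10 µM IPA and 855 ± 35.2 in 50 µM IPA. The sums of all 3 groups overlapped, since they ran from 864 to 902 CPM, from 867 to 947 CPM and from 816 to 900 CPM. Klf6 alone made up 36.9%, 39.3% and 37.7% of the summed CPM in the 3 groups, and Klf4 made up 3.97%, 4.76% and 2.71%.

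Among the members, 0 were called at 10 µM against vehicle by edgeR, where 0.41% of all genes were called. At an unadjusted p under 0.05 there were 3 members (Klf4, Klf5 and Klf9, beside 8.78% of all genes), and DESeq2 called 2 (Klf4 and Klf5, beside 1.68%). At 50 µM against vehicle 2 members were called, both lower (Klf4 and Klf5), where 6.5% of all genes were called lower. Between the doses 2 members were lower at 50 µM (Klf4 and Klf10), beside 7.85% of all genes. DESeq2 called 2 members at 50 µM (beside 17.1% of all genes) and 3 between the doses (beside 18.7%), the third being Klf6. The median log2 fold change over the 9 was -0.02, -0.07 and -0.11 in the 3 comparisons, against -0.01, 0.01 and 0.01 over all tested genes.

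**Figure D2:**
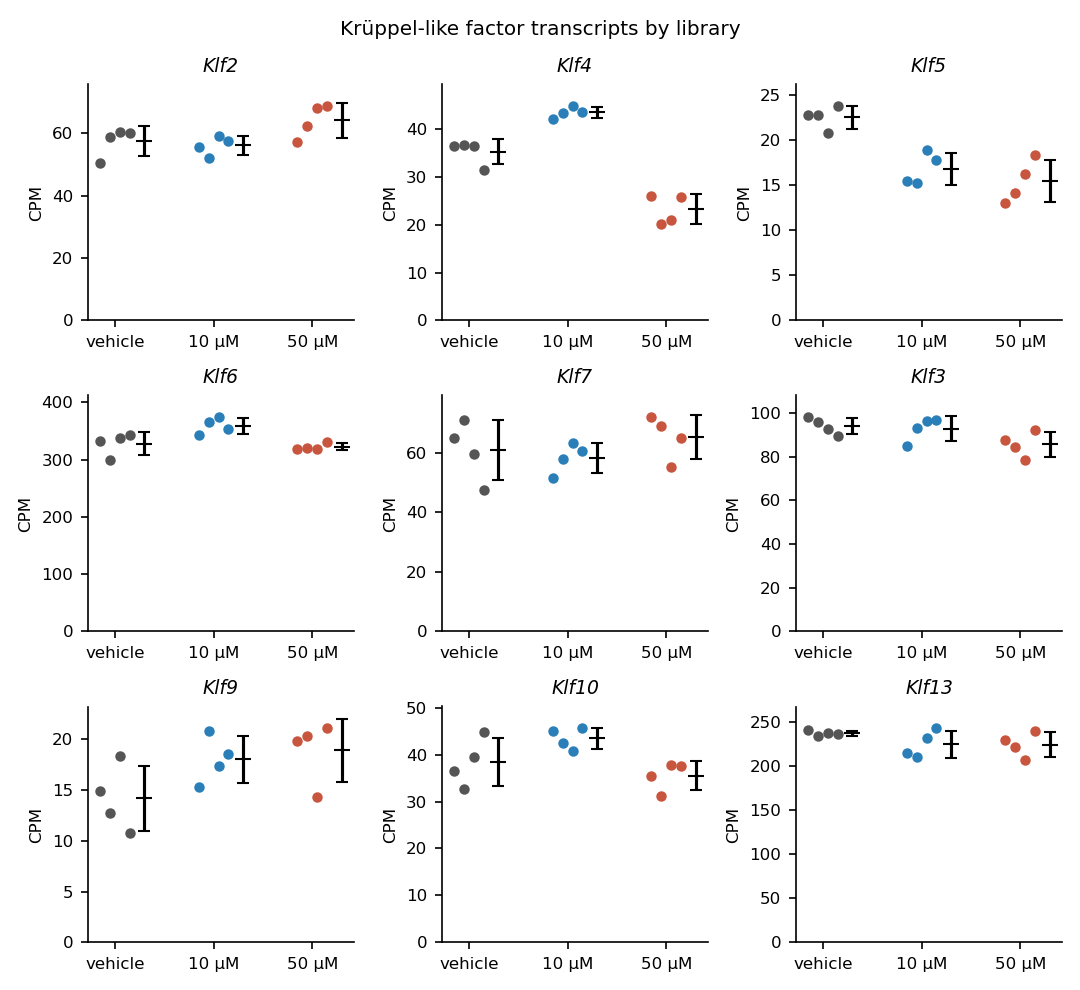
CPM of each KLF member in every library, 1 panel a gene with its own axis from 0, where points are the 4 libraries of vehicle, 10 µM IPA and 50 µM IPA and the bar beside them is the mean ± SD. Klf4 is highest at 10 µM (42.1 to 44.8 CPM) and lowest at 50 µM (20.1 to 25.9 CPM) with no overlap between the 3 groups, while Klf5 is lower at both doses than in vehicle.

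Klf4, the monocyte and macrophage regulator, had its highest values at 10 µM and its lowest at 50 µM. It lies on chromosome 4 (GRCm38, 55527143 to 55532466, minus strand, ENSMUSG00000003032). The 4 vehicle libraries held 36.4, 36.7, 36.5 and 31.3 CPM of Klf4, those of 10 µM IPA 42.1, 43.3, 44.8 and 43.6 CPM, and those of 50 µM IPA 25.9, 20.1, 21.0 and 25.9 CPM. No pair of the 3 groups overlapped, a separation that 3.57% of all genes showed upward at 10 µM, 10.5% downward at 50 µM and 10.9% downward between the doses. The log2 fold change was 0.30 (SE 0.07) at 10 µM, or 1.23-fold, with an adjusted p of 0.125 in edgeR and 0.0202 in DESeq2. At 50 µM Klf4 fell by 0.59 on the log2 scale (SE 0.10, adjusted p = 0.00203 in edgeR), or 1.51-fold, and it was called in all 8 fits that left out 1 library. Between the doses it fell by 0.90 on the log2 scale (SE 0.09, adjusted p = 7.69e-06 in edgeR), or 1.87-fold.

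Vehicle replicate 4 lay below the other 3 vehicle libraries for Klf4. Without it the log2 fold change was 0.25 at 10 µM (adjusted p = 0.116 in edgeR) and -0.65 at 50 µM (adjusted p = 0.000405). The counts behind these levels ran from 432 to 1190 a library.

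Klf2, a close relative of Klf4 and a factor that holds blood and endothelial cells in a resting state, did not follow it. It had 50.6, 58.9, 60.6 and 60.2 CPM in the vehicle libraries, 55.8, 52.0, 59.1 and 57.7 CPM at 10 µM, and 57.2, 62.3, 68.3 and 68.8 CPM at 50 µM. The 3 groups overlapped, with 50 µM replicates 3 and 4 above every other library. The log2 fold change was -0.03 (SE 0.08) at 10 µM and 0.17 (SE 0.09) at 50 µM against vehicle, with adjusted p of 0.951 and 0.241 in edgeR. Between the doses it was 0.20 (SE 0.08, adjusted p = 0.0994 in edgeR), which became 0.25 with an adjusted p of 0.0446 without 50 µM replicate 1. The ratio of Klf4 to Klf2 CPM within a library was 0.616 ± 0.0819 in vehicle, 0.775 ± 0.0379 at 10 µM and 0.365 ± 0.0660 at 50 µM (SD, n = 4). Its lowest 10 µM value (0.755) lay above the highest vehicle value (0.720), and its highest 50 µM value (0.453) lay below the lowest vehicle value (0.520).

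Klf5, a factor known for supporting proliferation in epithelium and in progenitor cells, had lower values at both doses. The gene lies on chromosome 14 (99298691 to 99315036, plus strand). Its levels were 22.8, 22.8, 20.8 and 23.8 CPM in vehicle, 15.4, 15.3, 18.9 and 17.8 CPM at 10 µM, and 13.04, 14.2, 16.3 and 18.4 CPM at 50 µM. Every IPA library was below every vehicle library, as in 2.56% of all genes at 10 µM and 10.5% at 50 µM, and the 2 doses overlapped. The log2 fold change at 10 µM was -0.42 (SE 0.09), with an adjusted p of 0.0975 in edgeR and 0.0082 in DESeq2. At 50 µM Klf5 fell by 0.54 on the log2 scale (SE 0.11, adjusted p = 0.00702 in edgeR), and the highest adjusted p among the 8 fits without 1 library was 0.0277. Between the doses the difference was -0.12 (SE 0.12, adjusted p = 0.558). Klf4 and Klf5 therefore had opposite signs at 10 µM and the same sign at 50 µM, and the ratio of Klf4 to Klf5 CPM was 1.57 ± 0.184 in vehicle, 2.60 ± 0.223 at 10 µM and 1.53 ± 0.314 at 50 µM.

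Klf6, a broadly expressed factor that is induced early after many stimuli and acts with NF-kB in inflammatory macrophages, held the highest level. It stood at 332, 299, 337 and 343 CPM in vehicle, 342, 366, 374 and 353 CPM at 10 µM, and 319, 321, 318 and 331 CPM at 50 µM. The 10 µM libraries lay above those of 50 µM without overlap, as in 10.9% of all genes, whereas both overlapped vehicle. The difference between the doses was -0.15 (log2, SE 0.06), with an adjusted p of 0.0827 in edgeR and 0.0298 in DESeq2, and the values against vehicle were 0.13 (SE 0.06) and -0.02 (SE 0.07).

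Klf7, best known for axon growth in neurons, scattered widely within groups. It ranged from 47.5 to 71.1 CPM in vehicle, from 51.4 to 63.2 CPM at 10 µM and from 55.3 to 72.0 CPM at 50 µM, and the groups overlapped in all 3 comparisons. The log2 fold changes were -0.06 (SE 0.11), 0.11 (SE 0.12) and, between the doses, 0.17 (SE 0.09), with adjusted p of 0.937, 0.581 and 0.219 in edgeR.

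Klf3, the CtBP-recruiting repressor with known roles in erythroid cells and B cells, showed the next smallest range of group means after Klf13 (0.13 on the log2 scale). Its values were 98.3, 95.9, 92.6 and 89.6 CPM in vehicle, 84.9, 93.3, 96.6 and 96.9 CPM at 10 µM, and 87.7, 84.4, 78.8 and 92.4 CPM at 50 µM. The groups overlapped, with the 50 µM mean of 85.8 ± 5.72 CPM below 94.1 ± 3.80 in vehicle. The log2 fold change was -0.02 (SE 0.07) at 10 µM and -0.12 (SE 0.07) at 50 µM, with adjusted p of 0.973 and 0.289 in edgeR. Its exons share 404 bases with an antisense transcript, Gm20033, that had 36 counts over the 12 libraries against 26372 for Klf3.

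Of the Sin3A-recruiting members, Klf10, first described as an early gene induced by TGF-beta, had 36.5, 32.6, 39.5 and 44.7 CPM in vehicle, 45.0, 42.4, 40.8 and 45.7 CPM at 10 µM, and 35.5, 31.2, 37.7 and 37.6 CPM at 50 µM. Vehicle overlapped both doses, while 50 µM lay below 10 µM without overlap, as in 10.9% of all genes. Against vehicle the log2 fold change was 0.18 (SE 0.10) at 10 µM and -0.10 (SE 0.11) at 50 µM, with adjusted p of 0.650 and 0.569 in edgeR. Between the doses Klf10 fell by 0.29 on the log2 scale (SE 0.08, adjusted p = 0.0226 in edgeR). That call was lost without 10 µM replicate 4 (adjusted p = 0.0570), without 50 µM replicate 2 (0.0872) and with all 12 libraries in one fit (0.0506).

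Klf9, a factor induced by glucocorticoid and thyroid hormone, had higher means with IPA but wide scatter. Its values were 14.9, 12.8, 18.3 and 10.8 CPM in vehicle, 15.3, 20.9, 17.4 and 18.5 CPM at 10 µM, and 19.9, 20.3, 14.3 and 21.1 CPM at 50 µM. Vehicle replicate 3 lay within the range of both doses and 50 µM replicate 3 within that of vehicle, so the groups overlapped. The log2 fold change was 0.35 (SE 0.15) at 10 µM and 0.43 (SE 0.16) at 50 µM, with adjusted p of 0.551 and 0.102 in edgeR. Without vehicle replicate 3 the 50 µM value was 0.57 with an adjusted p of 0.0411, and with no filter on low counts the adjusted p was 0.0417.

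Klf13, known for driving Ccl5 late in T cell activation, was the steadiest member. It stood at 241, 234, 237 and 237 CPM in vehicle, 215, 210, 231 and 243 CPM at 10 µM, and 230, 222, 206 and 240 CPM at 50 µM. The treated groups overlapped vehicle, and their SDs (15.2 and 14.1 CPM) exceeded the 2.67 CPM of vehicle. The log2 fold changes against vehicle were -0.08 (SE 0.06) and -0.07 (SE 0.07), and the difference between the doses was 0.00 (SE 0.07), whose sign changed with the normalization.

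**Figure D3:**
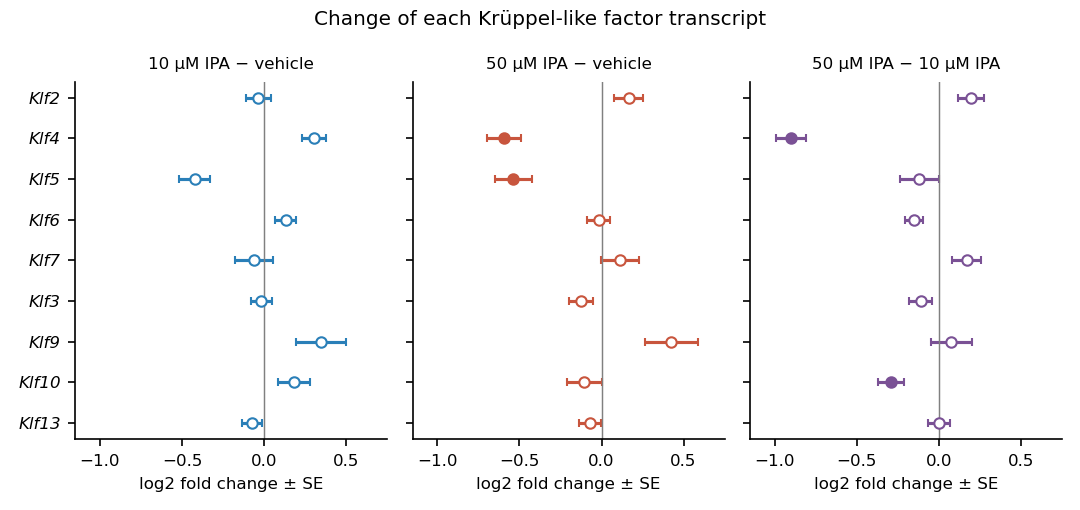
Log2 fold change ± SE of each KLF member from edgeR in 10 µM IPA minus vehicle, 50 µM IPA minus vehicle and 50 µM minus 10 µM IPA (4 libraries a group), with filled points for an adjusted p under 0.05 over all tested genes. Filled are Klf4 (-0.59) and Klf5 (-0.54) at 50 µM against vehicle, and Klf4 (-0.90) and Klf10 (-0.29) between the doses.

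Levels of the other KLF and SP genes were compared to see whether the family moved around these 9. Of 17 such genes 7 passed the filter, namely Klf8, Klf11, Klf16, Sp1, Sp2, Sp3 and Sp4. In vehicle Sp1 and Sp3, the broadly used GC-box factors, stood at 178 ± 9.14 and 175 ± 5.02 CPM, Sp2 at 46.6 ± 1.77, Klf16 at 24.3 ± 0.0344, Sp4 at 11.0 ± 1.62, Klf11 at 5.78 ± 0.884 and Klf8 at 5.69 ± 0.981 CPM. Klf16 was thus above Klf5 and Klf9 in CPM without being on the list, so level alone did not define it. By edgeR 0 of the 7 were called in each of the 3 comparisons, beside 0.41%, 13.5% and 15.4% of all genes. DESeq2 called 0 as well, beside 1.68%, 17.1% and 18.7%. At an unadjusted p under 0.05 there were 0, 1 (Sp2) and 1 (Klf11), beside 8.78%, 27.9% and 29.5% of all genes. The largest log2 values were -0.27 (SE 0.16) for Klf11 at 50 µM against vehicle and -0.34 (SE 0.15) for it between the doses. Klf8, a CtBP-type relative of Klf3, was at -0.15 (SE 0.16) and Klf16, of the Sin3A type, at -0.11 (SE 0.12) against vehicle at 50 µM.

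The remaining 10 family genes were at or near 0. Klf1, the erythroid factor, had at most 16 counts in a library, Klf12 at most 11, Klf15 at most 7, Sp7 at most 6, Sp9 at most 5, and Klf17 and Sp8 at most 1. Klf14, Sp5 and Sp6 had 0 counts in all 12 libraries, which at 3 counts a library as the limit allows at most 0.146 CPM in the shallowest one.

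Among 29 genes for KLF cofactors, ubiquitin ligases and upstream regulators, all of which were tested, 0 were called at 10 µM by edgeR, beside 0.41% of all genes. There was 1 at an unadjusted p under 0.05, beside 8.78%, and 0 by DESeq2, beside 1.68%. At 50 µM against vehicle 2 were higher and 2 lower, beside 7.0% and 6.5% of all genes, and the same 4 were called between the doses in the same directions. Ctbp1 and Ctbp2, which bind Klf3, and Sin3a, Hdac1 and Hdac2, which act with Klf9, Klf10 and Klf13, were not called by edgeR in any comparison. DESeq2 called 6 of the 29 at 50 µM against vehicle and 6 between the doses, beside 17.1% and 18.7% of all genes. Against vehicle these included Hdac1, at a log2 fold change of -0.19 with groups that did not overlap (adjusted p = 0.0372 in DESeq2 and 0.0934 in edgeR), and Wwp1, a ubiquitin ligase, at 0.25 with groups that did not overlap (adjusted p = 0.0439 in DESeq2 and 0.0559 in edgeR). Between the doses they included Ctbp2, at -0.21 with overlapping groups (adjusted p = 0.0483 in DESeq2 and 0.0710 in edgeR), and Stat6 at -0.15 with groups that did not overlap (0.0405 and 0.0872).

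Irf8, a factor needed for monocytes and dendritic cells that acts upstream of Klf4 in monocyte progenitors, rose at 50 µM, where Klf4 fell. Its mean was 86.6 ± 1.35 CPM in vehicle, 93.2 ± 3.73 at 10 µM and 114 ± 5.19 at 50 µM, with a log2 fold change of 0.40 (SE 0.07, adjusted p = 0.00142 in edgeR) at 50 µM. At 10 µM Irf8 had the same sign as Klf4, at 0.11 (SE 0.06, adjusted p = 0.668 in edgeR). Its 10 µM libraries lay above those of vehicle without overlap, as in 3.57% of all genes. Smad3, which carries TGF-beta signals to genes such as Klf10, was higher at 50 µM by 0.70 (SE 0.12, adjusted p = 0.0020 in edgeR), from 8.23 ± 1.12 to 13.3 ± 0.771 CPM. Tgfbr1, the TGF-beta type I receptor, fell by 0.45 on the log2 scale (SE 0.09, adjusted p = 0.00515), from 90.9 ± 4.61 to 66.4 ± 7.83 CPM. Nr3c1, the glucocorticoid receptor that induces Klf9, fell by 0.36 on the log2 scale (SE 0.07, adjusted p = 0.00548), from 106 ± 3.05 to 82.3 ± 6.09 CPM.

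Between the doses the same regulators differed by 0.29 (SE 0.06) for Irf8, 0.76 (SE 0.11) for Smad3, -0.51 (SE 0.08) for Tgfbr1 and -0.32 (SE 0.07) for Nr3c1 on the log2 scale. At 10 µM their log2 values against vehicle lay between -0.06 and 0.11. Unlike Klf4, none of the 4 had its highest or lowest mean at 10 µM beyond the spread of the vehicle libraries.

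Of 17 genes listed as reported targets of KLFs, 2 were higher and 1 lower at 10 µM against vehicle, beside 0.329% and 0.0806% of all genes, 7 higher and 1 lower at 50 µM, beside 7.0% and 6.5%, and 6 higher and 3 lower between the doses, beside 7.52% and 7.85%. DESeq2 called 4, 8 and 9 of the 17, beside 1.68%, 17.1% and 18.7% of all genes. Several were listed with their changes in these counts already known, so the counts are no independent evidence of a direction. The median log2 fold change over the 17 was 0.22, 0.14 and 0.12.

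Of the genes that Klf4 and Stat6 are known to induce in alternatively activated macrophages, Mrc1, the mannose receptor, came nearest to the order of Klf4 levels. It stood at 153 ± 25.6 CPM in vehicle, 235 ± 18.2 at 10 µM and 94.0 ± 13.5 at 50 µM, with log2 fold changes of 0.62 (SE 0.11, adjusted p = 0.0375) and -0.69 (SE 0.12, adjusted p = 0.00232 in edgeR), and none of the 3 groups overlapped. Retnla, which encodes the secreted protein RELM-alpha, rose at both doses, from 0.567 ± 0.201 CPM to 4.70 ± 1.44 and 65.3 ± 8.88 CPM, with log2 fold changes of 3.04 (SE 0.32) and 6.85 (SE 0.18). Chil3, a chitinase-like protein, fell by 0.33 on the log2 scale at 10 µM (SE 0.06, adjusted p = 0.0394 in edgeR) and was at -0.18 (SE 0.08) at 50 µM. These 3 genes thus had 3 different orders of group means, and 1 of them followed Klf4.

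At 10 µM the calls of Mrc1 and Chil3 were lost without single libraries. Mrc1 was called in 2 of 8 fits that left out 1 library and Chil3 in 1 of 8, with highest adjusted p of 0.164 and 0.209.

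Ccl5, the chemokine that Klf13 drives in T cells, rose at 50 µM by 0.70 (SE 0.12, adjusted p = 0.00243 in edgeR), from 10.8 ± 1.24 to 17.4 ± 2.45 CPM, at a Klf13 difference of -0.07. S1pr1, the lymphocyte egress receptor controlled by Klf2, rose at 50 µM from 4.42 ± 0.584 to 8.70 ± 1.42 CPM (log2 fold change 0.98, SE 0.16), beside 0.17 for Klf2. Pdgfa, a growth factor driven by Klf5 in smooth muscle, rose by 1.22 (SE 0.13) at 50 µM, from 9.66 ± 1.17 to 22.4 ± 3.38 CPM, while Klf5 fell. At 10 µM Pdgfa was at 0.57 (SE 0.12) with groups that did not overlap, and was called by DESeq2 (adjusted p = 0.00233) but not by edgeR (0.0758). Cdkn1a, the cell cycle inhibitor p21 and a Klf4 target, rose by 0.44 (SE 0.07) at 50 µM, from 356 ± 23.5 to 479 ± 26.9 CPM, while Klf4 fell.

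Lgals3 and Plau, a galectin and the urokinase-type plasminogen activator, rose at 50 µM by 0.32 (SE 0.09, adjusted p = 0.0338) and 0.39 (SE 0.09, adjusted p = 0.0144 in edgeR), with groups that overlapped. The Lgals3 call held in 2 of 8 fits without 1 library and the Plau call in 6 of 8. Between the doses Cd14, a receptor for bacterial lipid and a Klf4 target, was lower at 50 µM by a log2 value of -0.32 (SE 0.07), and Itgb7, an integrin chain, by -0.34 (SE 0.07). Cd14 stood at 139 ± 4.83 CPM in vehicle, 162 ± 9.83 at 10 µM and 130 ± 8.82 at 50 µM, which is the same order of means as Klf4 over a smaller range. Nr4a1, an early response gene, was higher at 50 µM than at 10 µM by 0.43 (SE 0.14, adjusted p = 0.0446 in edgeR) with overlapping groups, a call that held in 2 of 8 fits without 1 library.

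**Figure D4:**
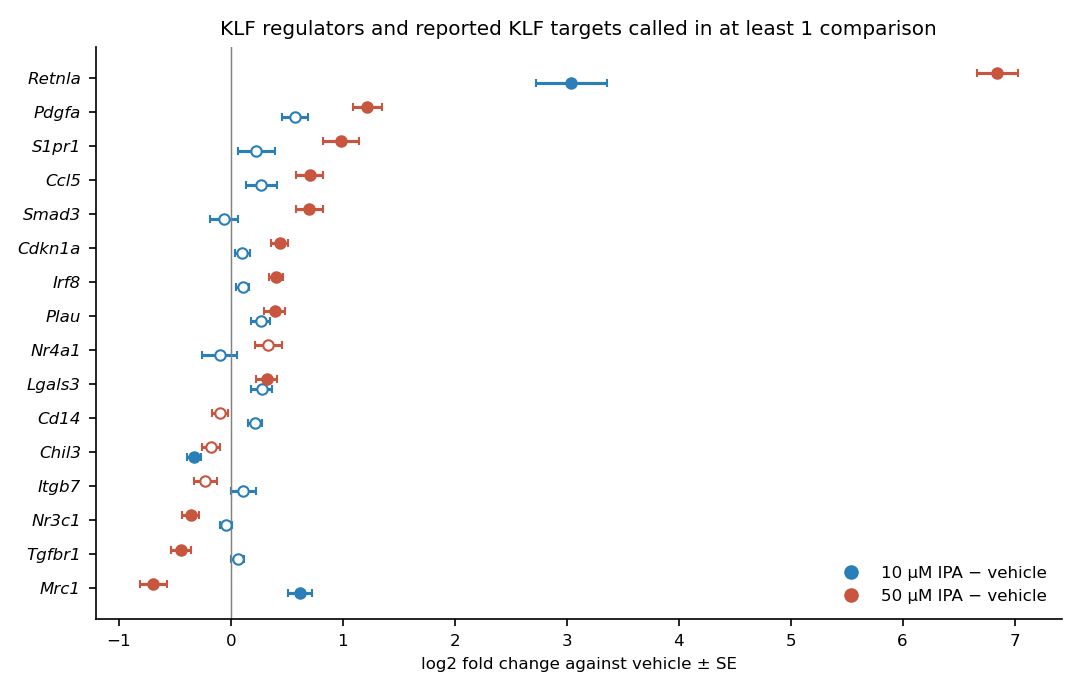
Log2 fold change ± SE against vehicle at 10 µM and 50 µM IPA (edgeR, 4 libraries a group) for the 4 KLF regulators and 12 reported KLF targets called in at least 1 of the 3 comparisons, with filled points for an adjusted p under 0.05 in the comparison shown. Mrc1 is the gene called with opposite signs at the 2 doses (0.62 and -0.69), and Retnla has the largest change (6.85 at 50 µM).

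The genes whose profile lay nearest to a member were sought among the 10195 tested genes whose mean reached 5 CPM, by the root mean square difference of log2 CPM, centred on each gene's own mean, over the 12 libraries. For Klf4 they were Dab2 (0.0798), an endocytic adaptor, Flrt3 (0.0979), a membrane protein of cell adhesion, and Tns3 (0.104), a focal adhesion protein. Dab2 stood at 276 ± 1.29 CPM in vehicle, 327 ± 9.86 at 10 µM and 181 ± 16.9 at 50 µM, and Flrt3 at 28.7 ± 3.04, 34.0 ± 1.79 and 18.0 ± 2.52 CPM. Both had the order of Klf4, highest at 10 µM and lowest at 50 µM, although libraries share depth and cell mixture and nearness is a description of these 12 points.

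**Figure D5:**
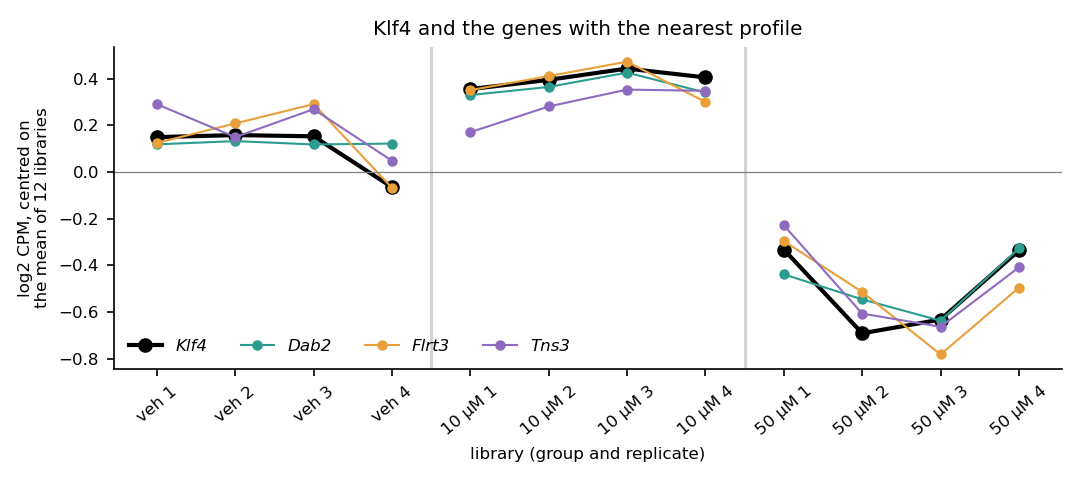
Log2 CPM of Klf4, Dab2, Flrt3 and Tns3 in each of the 12 libraries, centred on each gene's mean over the libraries, with vehicle, 10 µM IPA and 50 µM IPA set apart by vertical lines. Lines join libraries only to guide the eye, and all 4 genes lie above 0 in the 10 µM libraries and below 0 in the 50 µM libraries.

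The nearest genes to Klf5 were Fer (0.101), a tyrosine kinase, Itgb2l (0.112), an integrin beta chain of neutrophils, and Mfsd6 (0.124). Itgb2l had group means of 192 ± 11.3 CPM in vehicle, 158 ± 14.8 at 10 µM and 145 ± 14.6 at 50 µM, and Mfsd6 of 49.3 ± 2.83, 39.5 ± 3.80 and 34.4 ± 2.52 CPM. For Klf9 the nearest were Myrf (0.122), a membrane-bound transcription factor, Jazf1 (0.142) and Myof (0.152), a ferlin of membrane repair, and Myof had 180 ± 37.3, 241 ± 25.8 and 253 ± 27.5 CPM in the 3 groups. The nearest genes to Klf9 were farther from it than those of Klf4 from Klf4.

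Markers of several cell types in the culture differed at 50 µM. The 6 monocyte markers summed to 2153 to 2667 CPM in vehicle, 2648 to 2811 CPM at 10 µM and 1561 to 1869 CPM at 50 µM. At 50 µM 5 of 6 were called lower against vehicle, beside 6.5% of all genes. The medians of this sum were 2397, 2719 and 1607 CPM, in the same order by group as Klf4. At 10 µM the range overlapped that of vehicle, and edgeR called 0 of the 6, beside 0.41% of all genes. There were 2 at an unadjusted p under 0.05, beside 8.78%, and 1 by DESeq2, beside 1.68%. The single markers did not all share the order of Klf4, since Ly6c2 (means 581, 535 and 445 CPM) and Cx3cr1 (8.87, 8.63 and 4.04 CPM) were not highest at 10 µM. Ccr2, the receptor that marks inflammatory monocytes, had a mean of 347 CPM in vehicle, 505 at 10 µM and 204 at 50 µM (log2 fold changes 0.54, adjusted p = 0.0975, and -0.76, adjusted p = 0.00153 in edgeR). At 50 µM F13a1 fell by 1.92 and Cx3cr1 fell by 1.13 on the log2 scale. The part of monocyte content in the Klf4 values was not tested.

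The 7 neutrophil markers summed to 19272 to 27193 CPM in vehicle, 17753 to 20657 CPM at 10 µM and 13746 to 19278 CPM at 50 µM. At 50 µM 4 of 7 were called lower (Camp, Ngp, Ltf and Cxcr2), beside 6.5% of all genes. At 10 µM the range overlapped that of vehicle, and 0 of the 7 were called by edgeR, beside 0.41% of all genes. There were 2 at an unadjusted p under 0.05, beside 8.78%, and 0 by DESeq2, beside 1.68%. Macrophage markers summed to 1626 to 1803, 1924 to 2106 and 1626 to 1748 CPM. The medians of this sum were 1787, 2063 and 1657 CPM, also in the same order by group as Klf4. The 10 µM range lay above that of vehicle, and the 50 µM range overlapped it. The single markers did not all share this order, as Adgre1, which encodes F4/80, had means of 203, 215 and 324 CPM. At 50 µM Adgre1 rose by 0.68 (adjusted p = 7.48e-05 in edgeR). It was the 1 macrophage marker of 7 called higher there, while 2 were called lower, beside 7.0% and 6.5% of all genes. The 2 were Mrc1 at a log2 fold change of -0.69 (adjusted p = 0.00232 in edgeR) and Csf1r, also on the monocyte list, at -0.34 (adjusted p = 0.00769 in edgeR). At 10 µM 2 were called higher, beside 0.329% of all genes, Mrc1 at 0.62 (adjusted p = 0.0375 in edgeR) and C1qb at 0.44 (adjusted p = 0.0473 in edgeR). Of 6 dendritic cell markers 2 were called higher at 50 µM, beside 7.0% of all genes. The 5 B cell markers, summing to 18.3 to 25.4 CPM in vehicle and 36.5 to 56.6 CPM at 50 µM, were all called higher, beside the same share. Erythroid (4.66 to 8.15 CPM) and endothelial markers (5.53 to 10.0 CPM) were low in all libraries, and no marker was at 0 in every library. The part of these cell types in the values of Klf4, Klf5, Klf9 and Klf10 was not tested.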

How the data were processed

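Bone marrow cultures were profiled by bulk RNA-seq in 12 libraries. The authors prepared them with a stranded mRNA kit, aligned reads with HISAT2 2.2.1 to mm10 (GRCm38.p6) and deposited raw counts per Ensembl gene from featureCounts 2.0.1. The strand setting of that counting is not given in the sources used here. The group was taken from the treatment label, and the library name in the description was used where a title repeated another.

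Genes with over 0.5 CPM in at least 2 of 12 libraries were tested on these counts with edgeR 4.0.16 in R 4.3.3 (TMM, quasi-likelihood F test), 1 comparison of 8 libraries at a time, with Benjamini-Hochberg adjustment over all tested genes and a threshold of 0.05. A call is an adjusted p under that threshold. The SE is the log2 fold change over the square root of F. CPM is the count over the TMM-scaled library size, and CPM per kb divides it by the union of exons in GENCODE annotation of GRCm38. DESeq2 1.42.0, its size factors, other filters, 1 fit of all 12 libraries, a replicate block and leaving out each library were alternatives. The steps were tested on simulated data. Totals of 20451312 to 28038612 counts set the precision, and counting error is the only error a limit of 3 counts covers.

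The members and gene lists were chosen with earlier results of these data known. Named are the 9 members, every other KLF or SP gene that passed the filter, those of the cofactor, regulator and target lists called in any comparison, and the 3 nearest profiles (on log2(CPM + 0.5)) for the 3 members with the largest range of group means. Outside this rule, and after their values were seen, the family genes that failed the filter, 5 cofactors not called by edgeR, and Wwp1 and Stat6, called by DESeq2 only, were also named, as were markers. Pairs of libraries within a group differed by more than sampling noise (chi-square per degree of freedom 4.88 to 57.3), so none was counted as a duplicate. 1 gene of the target list is not reported here.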

Additional observations from a re-analysis of the deposited data

Results flagged for a closer look

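Klf4 in vehicle replicate 4 stood at 31.3 CPM, apart from the other 3 vehicle libraries, which lay within 36.4 to 36.7 CPM. The gap to the nearest was a share of 0.958 of the group's range, above Dixon's critical value for 4 samples. It was the 1 group flagged among 27 checked (9 genes in 3 groups), where chance flags about 1 in 20. The library is also the highest of its group for Klf5, Klf6 and Klf10 and the lowest for Klf3, Klf7 and Klf9, and over all genes it stood apart from the other vehicle libraries (chi-square per degree of freedom 38.4, 57.3 and 17.6, beside 9.23 to 17.3 among those 3). The highest of these, 57.3, was also the highest of all pairs within a group. Without it the Klf4 log2 fold change was 0.25 at 10 µM and -0.65 at 50 µM against vehicle.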

How the results depend on the processing

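Over alternatives that kept all libraries of a comparison, 154 of 162 values of the members' fold changes stayed on the same side of the threshold with the same direction, and over fits that left out 1 library 204 of 216 did. Counts of called genes are not among these values, and those that moved by over 1.5 times are given next. DESeq2 called 2 members at 10 µM (Klf4 and Klf5) where edgeR called 0. With all 12 libraries in one fit 1 member (Klf4) was called between the doses in place of 2. Among the reported targets at 10 µM, of which edgeR called 3, 1 (Mrc1) was called when at least 10 counts were required in every library, a filter that removed Retnla. The Klf13 difference between the doses was 0.00077 and turned to -0.000295 in DESeq2, -0.000323 with DESeq2 size factors and -0.00258 with all 12 libraries.

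Leaving out each library in turn gave 0 to 0 members called at 10 µM, 2 to 3 at 50 µM and 1 to 3 between the doses, with 1 without 10 µM replicate 4 or 50 µM replicate 2 and 3 without 50 µM replicate 1. Other KLF and SP genes stayed at 0 in these fits, regulators at 0, 4 to 5 and 4 to 5, and targets at 1 to 3, 6 to 8 and 7 to 8, the 1 (Retnla) without vehicle replicate 1 or 2 or any one of the 10 µM libraries. Fold changes that changed sign in these fits ran from -0.0410 to 0.0233 for Klf3 and -0.164 to 0.0212 for Klf7 at 10 µM, from -0.0658 to 0.00542 for Klf6 at 50 µM, and from -0.0319 to 0.0412 for Klf13 between the doses. The cause was not tested. Depth limits the low members most, Klf5 and Klf9, with as few as 267 and 271 counts in a library.

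The labels number replicates 1 to 4 in every group, and the counts did not show that the numbers pair the samples. This does not exclude a shared source, and for flow cytometry of such cultures the study used a repeated measure ANOVA. Same-numbered libraries had correlations of their deviations from -0.395 to 0.215 over 12 pairs, 2 of them over 0.1, and 5 of 24 best matches carried their own number. With the number as a block, 1 target (Retnla) was called at 10 µM in place of 3, and 0, 2 and 2 members were called in the 3 comparisons, as without it.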
